A study of Mus musculus with 10 samples.

Results

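Alox12 encodes the platelet-type arachidonate 12-lipoxygenase, and its values were set beside those of 8 genes that mark megakaryocytes and platelets: Pf4, Ppbp, Itga2b, Gp1ba, Gp9, Gp5, Vwf and Treml1. The 9 genes were chosen by symbol, with earlier values of the same mice known. Alox12 was selected on its place near the microRNA gene Mir324 and on its measured difference between genotypes, and the platelet genes were selected to ask whether Alox12 moves with them from mouse to mouse. They are 9 of the 35705 genes with a summed value in the deposited table, and all 9 were among the 13841 that averaged at least 1 TPM (a transcript level corrected for length and scaled so that every library sums to 1000000). Because the choice used the contrast between genotypes, that contrast is given for the 9 genes as a description with no test. The relation between Alox12 and the platelet genes was tested on values from which the mean of each genotype had been subtracted, a quantity that does not hold the contrast.

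RNA was sequenced from the cartilage caps of the medial knee of 10 individual mice, 5 wild-type controls and 5 Mir324-null mice, in which the gene of the microRNA miR-324 is disrupted. All 10 were untreated, and each library came from 1 mouse. Strain, age, sex, litter, the construction of the null allele and the sequencing batch are not given in the sources used here. No value of the Mir324 transcript was used, and genotype was taken from the labels alone. Replicate numbers are those of the sample labels, and mice of the same number were not treated as pairs in the main comparisons.

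Platelets are small anucleate fragments shed by megakaryocytes, the large polyploid cells of the bone marrow, and carry RNA made in those cells. They adhere to damaged vessels through the glycoprotein Ib-IX-V complex, which binds von Willebrand factor, and aggregate through the integrin αIIbβ3, which binds fibrinogen. Arachidonic acid released in activated platelets is converted by cyclooxygenase to thromboxane and by 12-lipoxygenase to the hydroperoxy precursor of 12-HETE.

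The samples are labelled articular cartilage and chondrocyte, and the levels showed much marrow RNA beside cartilage RNA. The 11 erythroid marker genes found summed to between 112881 and 264216 TPM per mouse, the 10 neutrophil markers to between 56838 and 114252 TPM, and the 9 cartilage markers to between 799.9 and 2179 TPM. Among the cartilage markers Matn3 and Col9a1 averaged 0.216 and 0.510 TPM, below the filter. The 7 others passed it, the highest being Chad at 669 TPM, Comp at 242 TPM and Acan at 109 TPM. The 8 platelet genes together took 0.158 ± 0.0239% of all TPM in wild-type against 0.219 ± 0.0540% in null mice (SD, n = 5). In such a bulk sample, fewer cells of a type and less RNA per cell cannot be told apart. The table holds no read counts, so depth per library is unknown and no counting error is attached to any value.

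The promoters of Alox12 and of the 3 platelet genes whose values, summed over transcripts, followed it most closely in these mice are shown first, so that the reader can see what stands before each start site. The sequences are from RefSeq (GRCm38.p6), each of 300 bases running from 250 bases before the annotated start site to 50 bases after it, 5′ to 3′ on the strand of the gene. Capitals mark every match, on either strand, to 3 motifs bound by the main families of megakaryocyte transcription factors: GATAA (GATA factors, TTATC on the other strand), AGGAAG or CGGAAG (ETS factors such as Fli1, CTTCCT or CTTCCG on the other strand) and TGTGGT (RUNX factors, ACCACA on the other strand). The Alox12 promoter lies at chr11:70255321-70255620 on the minus strand, that of Itga2b at chr11:102469834-102470133 on the minus strand, that of Gp9 at chr6:87777820-87778119 on the plus strand and that of Gp1ba at chr11:70638872-70639171 on the plus strand.
Alox12: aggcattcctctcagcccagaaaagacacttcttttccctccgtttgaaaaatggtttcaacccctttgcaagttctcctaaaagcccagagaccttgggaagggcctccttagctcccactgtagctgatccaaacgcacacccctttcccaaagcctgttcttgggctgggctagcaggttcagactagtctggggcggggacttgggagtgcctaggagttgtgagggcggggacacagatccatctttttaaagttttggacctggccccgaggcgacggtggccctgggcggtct
Itga2b: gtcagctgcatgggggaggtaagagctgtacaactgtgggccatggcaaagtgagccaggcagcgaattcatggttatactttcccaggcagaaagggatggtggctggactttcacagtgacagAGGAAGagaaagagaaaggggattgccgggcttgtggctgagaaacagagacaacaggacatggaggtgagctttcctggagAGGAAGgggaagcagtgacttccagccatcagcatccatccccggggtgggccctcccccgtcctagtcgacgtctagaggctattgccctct
Gp9: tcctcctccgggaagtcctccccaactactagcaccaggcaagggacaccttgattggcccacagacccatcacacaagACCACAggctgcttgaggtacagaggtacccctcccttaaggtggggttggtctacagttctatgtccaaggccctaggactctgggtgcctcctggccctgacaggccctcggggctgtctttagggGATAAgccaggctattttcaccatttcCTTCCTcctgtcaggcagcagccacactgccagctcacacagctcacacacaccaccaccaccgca
Gp1ba: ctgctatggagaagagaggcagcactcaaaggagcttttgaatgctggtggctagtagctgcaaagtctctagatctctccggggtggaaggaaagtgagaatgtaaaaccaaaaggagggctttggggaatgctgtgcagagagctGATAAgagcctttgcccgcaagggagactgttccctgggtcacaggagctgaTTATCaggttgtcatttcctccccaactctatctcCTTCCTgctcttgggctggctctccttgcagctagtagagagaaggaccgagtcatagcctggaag
The Alox12 window held no match to any of the 3 motifs. The Itga2b window held 2 AGGAAG matches, at -125 to -120 and -43 to -38 from the start site, and no GATAA. In the Gp9 window GATAA stood at -43 to -39, AGGAAG on the other strand at -16 to -11, and TGTGGT on the other strand at -171 to -166. The Gp1ba window held GATAA on both strands, at -103 to -99 and -51 to -47, and AGGAAG on the other strand at -16 to -11, the same distance from the start as in Gp9.

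Promoter sequences were found for 8 of the 9 genes, all but Vwf. GATAA was present in 4 of these 8 (Pf4, Gp1ba, Gp9 and Gp5), against 25.4% of 32851 mouse promoter windows of the same length. The ETS motif was present in 5 of 8, against 46.5% of all windows, and TGTGGT in 1 of 8, against 16.8%. No 2 of the matches overlapped. The windows of Ppbp and Treml1, like that of Alox12, held none of the 3. The matches are descriptions of letters and not of bound sites, and no binding was measured.

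The microRNA missing in the null mice has a 5p and a 3p mature strand, shown with the seed (bases 2 to 8) in capitals because a site for it in a 3′ UTR is what would make a gene a predicted target. The strands map to chr11:70012060-70012082 and chr11:70012095-70012114 on the plus strand (RefSeq, GRCm38.p6).
mmu-miR-324-5p: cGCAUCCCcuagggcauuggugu
mmu-miR-324-3p: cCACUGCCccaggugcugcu
Matches to the 5p seed (GGGATGC) and to the 3p seed (GGCAGTG) were counted in the 3′ UTR of each gene, taking the longest one annotated. All 9 genes had 0 matches to either. The Alox12 UTR was 1072 bases long, and those of the platelet genes ran from 123 bases (Pf4) to 738 bases (Vwf). Of 12592 genes with a 3′ UTR, of a median of 1149 bases, 8.50% held a 5p site and 15.4% a 3p site. A shorter UTR leaves less room for a match, so these shares are not a like comparison for the platelet genes.

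Alox12 (ENSMUSG00000000320, chr11:70241457-70255353, minus strand) measured 45.7, 49.5, 47.0, 54.6 and 52.5 TPM in wild-type mice 1 to 5, against 81.1, 71.5, 43.4, 54.8 and 74.0 TPM in null mice 1 to 5. The wild-type mice lay close together, 4 of the 5 null mice were above all of them, and null mouse 3 had the lowest value of all 10. The means were 49.9 ± 3.70 TPM in wild-type against 65.0 ± 15.4 TPM in null mice (SD, n = 5), a difference of 0.34 on the log2(TPM + 1) scale (SE 0.155). Alox12 lies 229 kb from the Mir324 hairpin on the same chromosome.

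The 2 chemokines stored in platelet alpha granules were the most abundant of the 9 genes. Ppbp (chr5:90768518-90770063), the precursor of the neutrophil-attracting chemokine CXCL7, measured 474, 724, 817, 798 and 762 TPM in the wild-type mice against 1085, 1035, 623, 921 and 1296 TPM in null mice. Its neighbour Pf4 (chr5:90772435-90773383), platelet factor 4, starts 2.37 kb beyond the end of Ppbp and measured 424, 603, 599, 630 and 487 TPM in wild-type against 786, 784, 459, 706 and 990 TPM in null mice. In both genes wild-type mouse 1 was lowest of all, null mouse 3 lay within the wild-type range, and null mouse 5 was highest. The log2(TPM + 1) differences were 0.46 (SE 0.198) for Ppbp, from means of 715 ± 139 and 992 ± 247 TPM, and 0.41 (SE 0.186) for Pf4, from 549 ± 88.8 and 745 ± 192 TPM (SD, n = 5).

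The surface receptors were lower in level, and most had their lowest values in the same mice. Itga2b (chr11:102453297-102470122), the αIIb integrin chain and an early mark of the megakaryocyte lineage, measured 116, 115, 107, 125 and 99.8 TPM in wild-type against 208, 162, 93.3, 141 and 182 TPM in null mice, a log2(TPM + 1) difference of 0.43 (SE 0.180). Here, unlike in the chemokines, wild-type mouse 1 was not low. Gp9 (chr6:87778072-87779768), the small subunit of the von Willebrand factor receptor, measured 57.6, 74.9, 75.0, 75.4 and 70.9 TPM in wild-type against 117, 96.4, 64.8, 87.3 and 123 TPM in null mice, a difference of 0.43 (SE 0.161) on that scale. Gp1ba (chr11:70639122-70642036), the subunit that binds von Willebrand factor, measured 14.3, 20.4, 21.9, 21.4 and 22.7 TPM in wild-type against 35.9, 31.3, 17.1, 29.7 and 35.4 TPM in null mice, a difference of 0.52 (SE 0.196). In both subunits the only values under 20 TPM for Gp1ba, or under 70 TPM for Gp9, were those of wild-type mouse 1 and null mouse 3. Gp5 (chr16:30307685-30310779), the subunit cleaved by thrombin, measured 21.6, 33.6, 36.1, 35.1 and 33.2 TPM in wild-type against 56.6, 44.2, 32.5, 44.0 and 59.8 TPM in null mice, a difference of 0.55 (SE 0.180). Treml1 (chr17:48359916-48367176), a receptor kept in alpha granules and exposed on activated platelets, measured 33.7, 46.9, 52.0, 50.1 and 45.4 TPM in wild-type against 84.3, 69.8, 50.1, 65.2 and 87.8 TPM in null mice. Its difference of 0.62 (SE 0.162) was the largest of the 9 genes on values summed over transcripts, and the groups overlapped only through null mouse 3. With protein-coding transcripts alone it was 0.50, and that of Itga2b was the largest, at 0.61.

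Vwf (chr6:125546774-125686679), the adhesive ligand made by megakaryocytes and also by endothelial cells, differed from the other platelet genes. It measured 43.5, 42.5, 42.6, 33.1 and 29.2 TPM in wild-type against 73.6, 42.7, 34.8, 40.6 and 52.3 TPM in null mice, a log2(TPM + 1) difference of 0.32 (SE 0.190). Wild-type mouse 1, the lowest for most platelet genes, was the highest wild-type mouse for Vwf, and only 2 null mice were above all wild-type mice. Without null mouse 1 the Vwf difference was 0.16.

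**Figure D1:**
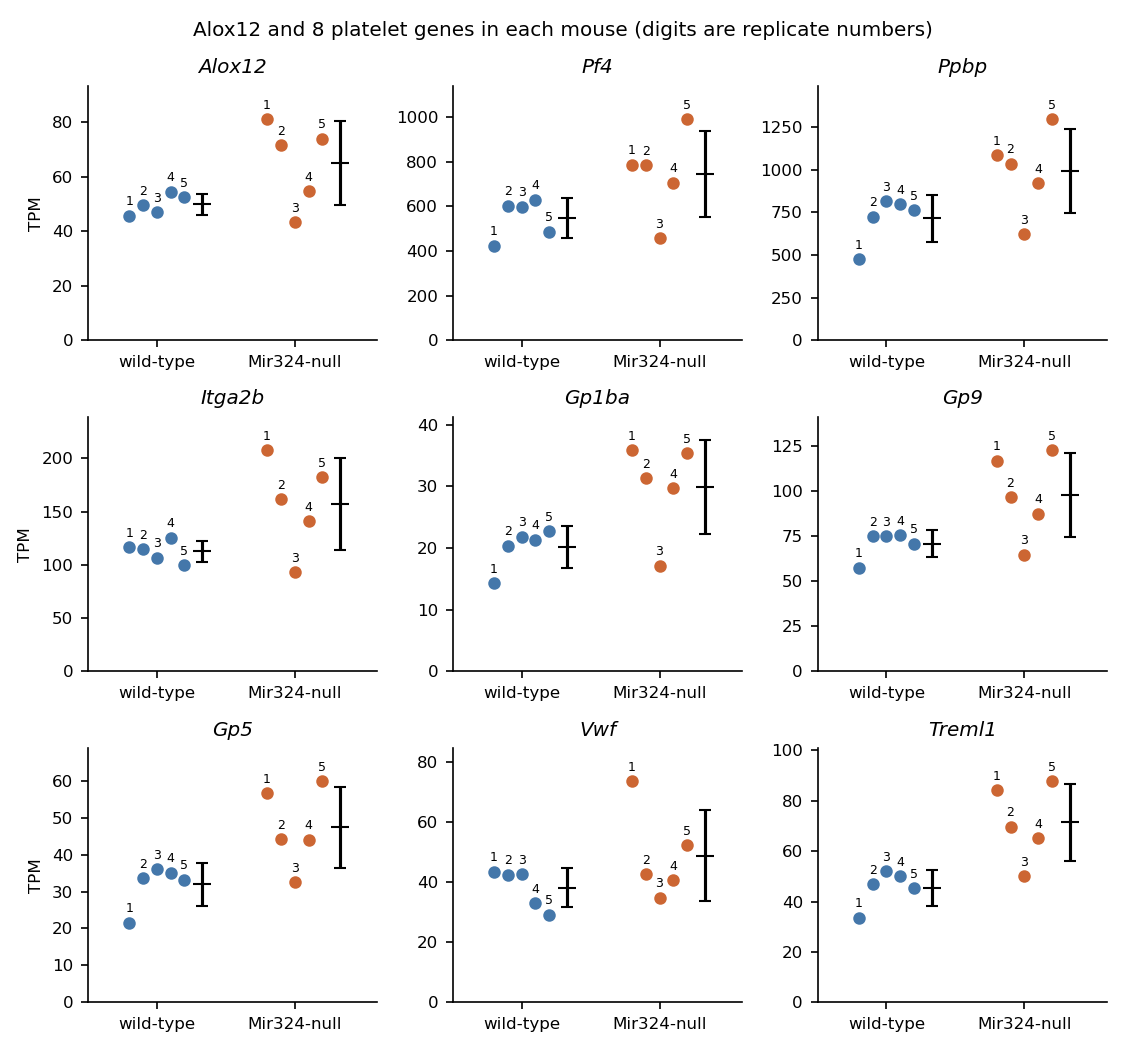
Level in TPM (y axis, starting at 0, a separate scale per gene) of Alox12 and 8 platelet genes in each of 5 wild-type and 5 Mir324-null mice; points are mice with their replicate numbers, and bars are the mean ± SD. Null mouse 3 sits within or below the wild-type range in every panel, at 43.4 TPM for Alox12, and wild-type mouse 1 sits lowest of its group for Pf4, Ppbp, Gp1ba, Gp9, Gp5 and Treml1.

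Read together, all 9 genes had a higher mean in null mice, and the median log2(TPM + 1) difference of the 8 platelet genes was 0.45, against -0.045 for all genes tested, of which 40.0% were higher in null mice. The genotypes did not separate: 0 of the 9 genes had all 5 null mice above all 5 wild-type mice, a pattern found in 0.881% of all genes tested. Across all 13841 genes, 0% passed limma's test at an adjusted p of 0.05, with 1603 at an unadjusted p under 0.05. The sum of the 8 platelet genes ran from 1185 to 1768 TPM in wild-type against from 1374 to 2826 TPM in null mice, the spread within null mice being the wider (SD 540 against 239 TPM). Leaving out null mouse 3 raised the Alox12 difference to 0.48 and the median of the platelet genes to 0.61, and leaving out null mouse 1 lowered that of Alox12 to 0.26.

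After the genotype means were subtracted, r with Alox12 was above 0 for all 8 platelet genes, but none of the 8 passed the adjustment over all genes. Each value was expressed as the deviation of log2(TPM + 1) from the mean of its genotype, and Alox12 was set against each of the other 13840 genes over the 10 mice, with an exact two-sided permutation test over the 14400 reassignments within genotypes and Benjamini-Hochberg adjustment over all of those genes. On values summed over transcripts Itga2b followed Alox12 most closely of the 8, with Pearson r = 0.914 (exact permutation p = 0.00722) and Spearman rho = 0.830 (exact permutation p = 0.0274), and ranked 5 among all genes. With protein-coding transcripts alone the r of Itga2b was 0.626, the lowest of the 8. Gp9 had r = 0.898 (exact permutation p = 0.00431, rho = 0.830 with p = 0.0186) and ranked 6. Gp1ba had r = 0.853 (exact permutation p = 0.00181, rho = 0.855 with p = 0.0108) and ranked 20.

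The remaining granule and receptor genes followed with values between 0.76 and 0.81. Treml1 had r = 0.808 (exact permutation p = 0.00667, rho = 0.770 with p = 0.0549), Pf4 0.787 (p = 0.0198, rho = 0.624 with p = 0.0544), Ppbp 0.784 (p = 0.00701, rho = 0.709 with p = 0.0403) and Gp5 0.761 (p = 0.0121, rho = 0.745 with p = 0.0485). Vwf stood lower, at r = 0.565 (exact permutation p = 0.195, rho = 0.394 with p = 0.340). The median r over the 8 genes was 0.797, against -0.132 over all genes.

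The permutation p of r adjusted to 0.950 for 7 of the 8 genes and to 0.992 for Vwf, and that of rho to 1 for all 8. Of all 13840 genes 0% had an adjusted p under 0.05, the smallest being 0.577. An unadjusted exact permutation p under 0.05 was found for 706 genes, about the number that chance gives at that threshold. A positive r with an unadjusted p under 0.05 was found in 7 of the 8 platelet genes and in 1.44% of all genes. The platelet genes also followed one another, with a median r of 0.932 (from 0.653 to 0.989) over the 21 pairs without Vwf, so that the 8 relations with Alox12 are not 8 independent observations. Vwf with the other 7 had a median r of 0.446, from 0.299 with Ppbp to 0.752 with Itga2b.

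**Figure D2:**
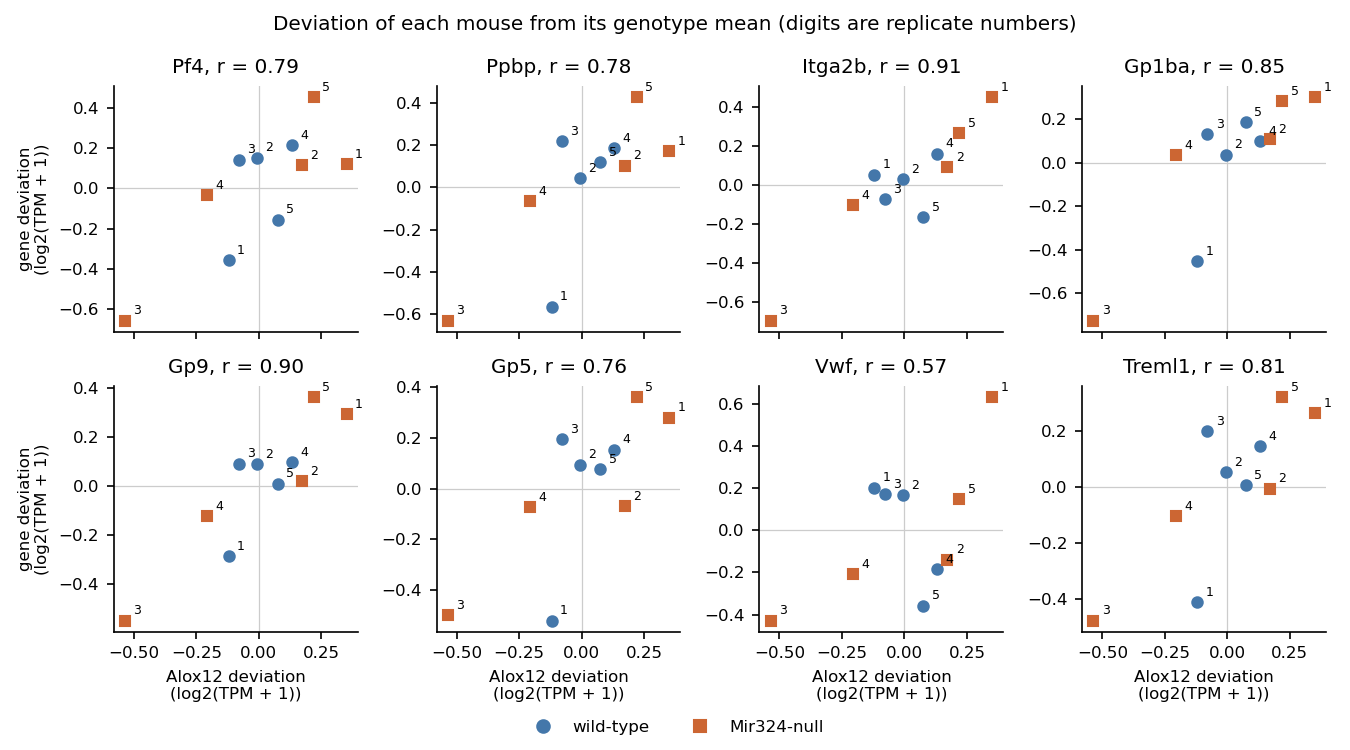
Deviation of each platelet gene (y axis) against that of Alox12 (x axis) from the genotype mean, both in log2(TPM + 1), for 5 wild-type mice (circles) and 5 Mir324-null mice (squares), with replicate numbers. Null mouse 3 lies at the lower left of every panel and null mice 1 and 5 at the upper right of most; r runs from 0.565 (Vwf) to 0.914 (Itga2b).

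The relation rested in large part on null mouse 3. With only null mouse 1 left out, the median r was higher than with all mice, at 0.830, but only Pf4 and Ppbp rose, to 0.842 and 0.818. The r of every other platelet gene fell, that of Itga2b to 0.880 and that of Gp5 to 0.725. In that setting 7 of the 8 genes had a positive r with an unadjusted exact permutation p under 0.05. Null mice 3 and 1 were farthest from the median of Alox12, and without both the r of the 8 genes ran from -0.116 (Vwf) to 0.704 (Gp9) with a median of 0.588, and 0 of the 8 had a positive r with an unadjusted exact permutation p under 0.05. Without null mouse 3 alone the median r was 0.574 and the highest was 0.749, for Itga2b, and 2 of the 8 kept a positive r with an unadjusted exact permutation p under 0.05. Without null mouse 3 the r of Pf4 was 0.455 and that of Vwf 0.324, and without null mouse 1 that of Vwf was 0.319. Without wild-type mouse 1 the median r was higher, at 0.874. Leaving out both wild-type mouse 1 and null mouse 3 gave a median of 0.621 and 1 gene of 8. Apart from Vwf without null mice 1 and 3, each platelet gene kept a positive r in all of these.

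**Figure D3:**
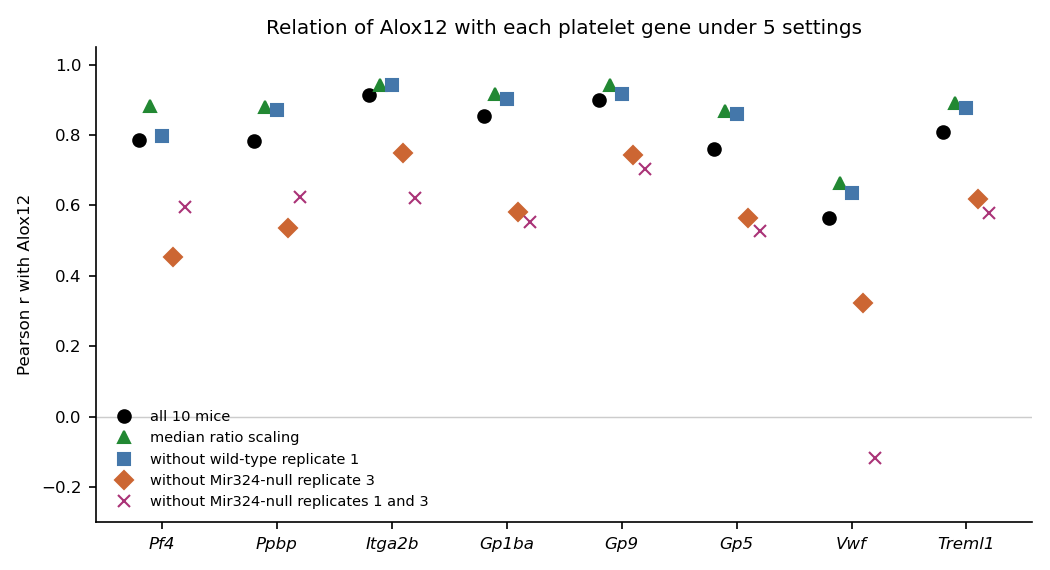
Pearson r of each platelet gene with Alox12 over genotype-centred log2(TPM + 1) values (y axis) in all 10 mice, after median ratio scaling, and with the named mice left out. Diamonds (without null mouse 3) and crosses (without null mice 1 and 3) lie below the circles for all 10 mice in each of the 8 genes, and the cross of Vwf lies below 0, at -0.116.

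Alox12 was also set against the platelet genes as a unit. Its log2(TPM + 1) value minus the mean of the 8 platelet genes was -0.63, -0.89, -1.01, -0.78 and -0.69 in wild-type mice and -0.89, -0.78, -0.88, -1.05 and -1.03 in null mice. The means were -0.80 ± 0.155 and -0.93 ± 0.112 (SD, n = 5), and the groups overlapped, the null mean being the lower. With the platelet mean as a covariate in limma, the Alox12 difference between genotypes was -0.039 (SE 0.127), against 0.34 (SE 0.155) without it. The platelet mean was itself higher in null mice, so genotype and platelet RNA cannot be told apart with 5 mice a group.

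The genes beside Alox12 on chromosome 11 had r values with it around 0. Of 27 genes within 250 kb of Alox12, 18 passed the filter. Their genotype-centred r with Alox12 had a median of -0.088 and ran from -0.51 to 0.645. A positive r with an unadjusted exact permutation p under 0.05 was found in 0 of 18, near the share of 1.44% over all genes. Of the 18, 5 were higher and 13 lower in null mice, with a median log2(TPM + 1) difference of -0.051, from -0.36 to 0.18. Gp1ba is on the same chromosome, 384 kb from Alox12 and 627 kb from the hairpin, outside that window.

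With all 10 mice the 2 other lipoxygenases above the filter had an r with Alox12 below that of each platelet gene, the lowest being Vwf at 0.565. Without null mouse 3 the median r of the 2 was 0.330, against 0.324 for Vwf. Alox15, which in mice also makes 12-lipoxygenase products in leukocytes, averaged 20.5 ± 8.78 TPM in wild-type against 23.2 ± 9.58 TPM in null mice (SD, n = 5) and had an r with Alox12 of 0.058. Alox5, the leukotriene-forming enzyme of myeloid cells, averaged 54.4 ± 18.5 and 53.7 ± 20.6 TPM with an r of 0.539 (exact permutation p = 0.127). The epidermal members were at or near 0: Alox12e averaged 0.761 and 0.769 TPM, Aloxe3 0.153 and 0.310 TPM and Alox8 0.225 and 0.157 TPM in wild-type against null mice, and Alox12b was listed at 0 in all 10. Alox12 is also expressed in epidermis. Of 8 keratinocyte markers Krt5, Krt14, Krt15 and Dsg3 were listed at 0 in every mouse. Krt10 averaged 2.52 TPM and was the only 1 to pass the filter, and the 8 summed to between 1.30 and 4.39 TPM. The part of epidermis in the Alox12 values was not tested.

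The value of a gene is a sum over transcripts, and its make-up differed between the 9. Alox12-201, a protein-coding transcript, held 91.4% of the Alox12 TPM. Of Itga2b, the single coding transcript Itga2b-201 held 40.6% and the processed transcripts Itga2b-207 and Itga2b-210 held 33.1% and 23.0%. Wild-type mouse 1 had only 21.5 TPM of Itga2b-201, against 46.9 to 52.1 TPM in the other wild-type mice, against 85.5, 71.2, 45.5, 61.0 and 65.1 TPM in null mice 1 to 5, and had 63.7 TPM of Itga2b-207. On the coding transcript wild-type mouse 1 was the lowest of all 10, as it was for Gp1ba, Gp9 and Gp5, and the log2 difference between genotypes was 0.61 rather than 0.43.

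Vwf was mostly made of transcripts other than the full coding one. Vwf-210, annotated as subject to nonsense-mediated decay, held 38.8%, the processed transcript Vwf-209 held 30.9%, and the coding Vwf-203 held 25.8%. Vwf-209 measured 25.3, 18.6, 14.5, 5.19 and 4.08 TPM in wild-type mice 1 to 5 and was high in null mouse 1, at 25.0 TPM. The coding Vwf-203 measured 5.03, 9.36, 10.6, 9.74 and 10.6 TPM in wild-type against 18.6, 13.2, 7.09, 14.5 and 13.5 TPM in null mice, lowest in wild-type mouse 1 and then in null mouse 3, as for Ppbp, Pf4, Gp1ba, Gp9 and Gp5. With protein-coding transcripts alone the log2(TPM + 1) difference of Vwf between genotypes was 0.45 in place of 0.32. Its r with Alox12 was then 0.767 in place of 0.565. The r of Itga2b was 0.626 in place of 0.914, the lowest of the platelet genes rather than the highest. Of Pf4, the retained-intron transcript Pf4-202 held 32.9% and the coding Pf4-201 held 66.6%.

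**Figure D4:**
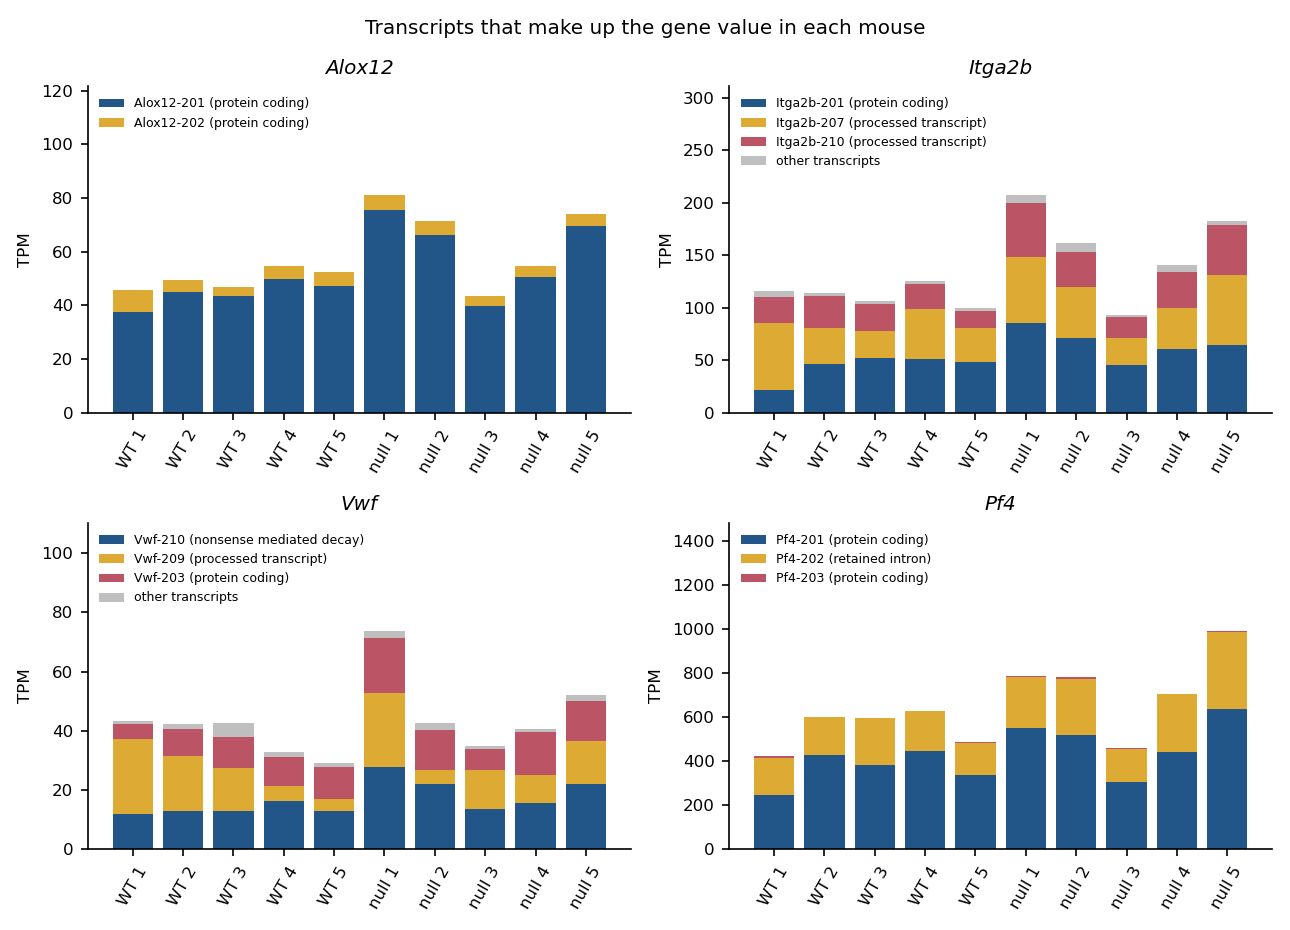
Level in TPM (y axis, starting at 0) of the transcripts that add up to Alox12, Itga2b, Vwf and Pf4 in each mouse, with transcript type in the key. In wild-type mouse 1 the coding Itga2b-201 was 21.5 TPM, and Vwf-209 was 25.3 TPM in wild-type mouse 1 and 25.0 TPM in null mouse 1.

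Further genes of the platelet lineage, in lists of symbols not picked for how they moved but written with earlier results known, had 0 genes past limma's adjusted p of 0.05 in the genotype comparison in every list. Among 10 further surface receptors, 6 were higher and 4 lower in null mice, with a median log2(TPM + 1) difference of 0.20. Cd9, a tetraspanin found on many cells, was the highest of these, at 288 ± 37.0 and 285 ± 49.7 TPM (SD, n = 5). Cd226, an adhesion receptor of platelets and lymphocytes, had the largest difference upward (0.69, SE 0.246), and the junction protein Jam3 the largest downward (-0.41, SE 0.213). The median r of this list with Alox12 was 0.567, and 5 of 10 had a positive r with an unadjusted exact permutation p under 0.05, against 1.44% of all genes. Without null mouse 3 the median r of the list was 0.577.

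Genes for platelet activation and for granule content were listed apart. In the list of agonist receptors and signalling, 12 of 13 genes passed the filter, 10 were higher and 2 lower in null mice (median difference 0.31), and 8 of 12 had a positive r with an unadjusted exact permutation p under 0.05 (median r 0.655). Rasgrp2, the exchange factor that activates Rap1 in platelets, was the highest of these, at 174 and 192 TPM, F2rl3, the thrombin receptor PAR4, had the largest difference upward (0.52, SE 0.206), and the kinase Syk the largest downward (-0.036, SE 0.129). In the list of 11 granule proteins, 7 were higher and 4 lower (median difference 0.017, median r 0.451), and 4 had such an r. Sparc, a matrix protein of platelet granules that bone and cartilage cells also make, was the highest, at 2117 and 1224 TPM, and the lowest in null relative to wild-type mice (-0.80, SE 0.249). Mmrn1, the alpha-granule protein multimerin, had the largest difference upward (0.57, SE 0.222). Over all genes the share with such an r was 1.44%. Without null mouse 3 the median r was 0.461 for the agonist list and 0.347 for the granule list. The difference between these lists was not tested.

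All 8 genes for platelet formation and cytoskeleton were higher in null mice, with a median log2(TPM + 1) difference of 0.23 and a median r of 0.677 (3 of 8 with an unadjusted exact permutation p under 0.05). Myh9, non-muscle myosin IIA, was the most abundant at 155 and 167 TPM, and Tubb1, the β-tubulin of the platelet marginal band, had the largest difference (0.64, SE 0.256). The 10 transcription factors of megakaryocytes included 7 higher and 3 lower in null mice (median difference 0.42), and their median r with Alox12 was 0.211, with 1 of 10 at a positive r and an unadjusted exact permutation p under 0.05. Nfe2, needed for platelet release, was the highest of them at 150 and 197 TPM, Tal1 had the largest difference upward (0.59, SE 0.155) and Mef2c the largest downward (-0.33, SE 0.114). Gata1, Gfi1b, Nfe2, Tal1 and Zfpm1 of this list also act in red cell precursors. Over all genes 1.44% had a positive r at that threshold. Without null mouse 3 the median r was 0.538 for the formation list and 0.188 for the transcription factors.

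Among 9 enzymes that make eicosanoids in blood cells, 2 were higher and 7 lower in null mice (median difference -0.025) and 2 had a positive r with an unadjusted exact permutation p under 0.05 (median r 0.399). Alox5ap, the partner of 5-lipoxygenase, was the highest at 597 and 584 TPM. Tbxas1, thromboxane synthase, had the largest difference upward (0.30, SE 0.137) and Hpgds, a prostaglandin D synthase, the largest downward (-0.28, SE 0.165). Tbxas1 had an r of 0.768 (exact permutation p = 0.00799), while Ptgs1, the platelet cyclooxygenase, had 0.399 (exact permutation p = 0.410). The share of all genes with a positive r at an unadjusted p under 0.05 was 1.44%. Without null mouse 3 the median r of the list was 0.489.

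Markers of other cell types were read in the same way. Over all genes, 1.44% had a positive r with Alox12 at an unadjusted exact permutation p under 0.05. A count of 0 in lists this short is near that share. All 11 tested erythroid markers were higher in null mice, with a median log2(TPM + 1) difference of 0.48, close to that of the platelet genes, and their median r with Alox12 was -0.023 and 0 of 11 had a positive r with an unadjusted exact permutation p under 0.05. Of 10 neutrophil markers 2 were higher and 8 lower (median difference -0.037, median r 0.412, 1 of 10 with such an r). Of 12 endothelial markers, which cover the other known source of Vwf, 1 was higher and 11 lower (median difference -0.21, median r -0.362, 0 of 12), and they summed to between 143 and 206 TPM in wild-type against between 122 and 168 TPM in null mice. Wild-type mouse 1 had the highest endothelial sum, 206 TPM. Without null mouse 3 the median r with Alox12 was 0.110 for the endothelial list, 0.332 for the neutrophil list and -0.072 for the erythroid list. All 8 B lineage markers, all 10 osteoblast and osteocyte markers and 6 of 7 tested cartilage markers were lower in null mice, with median differences of -0.45, -0.90 and -0.65 and 0 genes with a positive r with Alox12 at an unadjusted exact permutation p under 0.05. The part of these cell types in the Alox12 values was not tested.

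**Figure D5:**
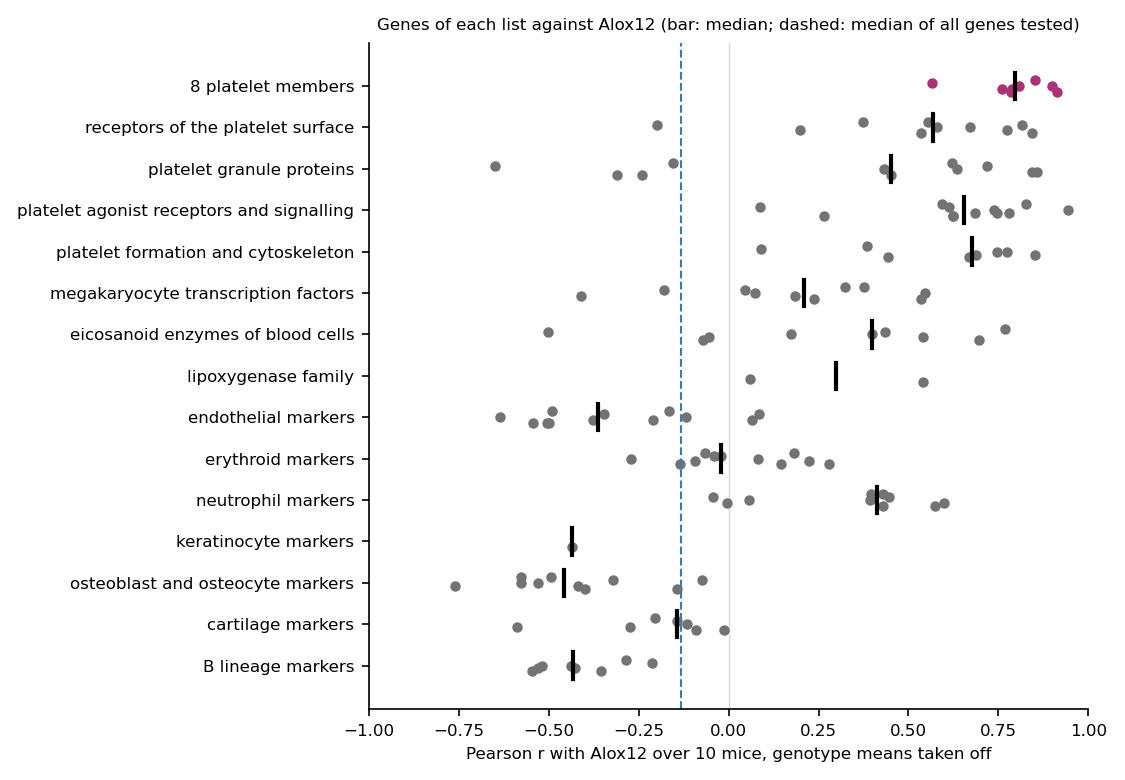
Pearson r with Alox12 over 10 mice after subtracting genotype means (x axis) for each tested gene of each list (points), with the median of the list (bar) and of all genes tested (dashed line, -0.132). The 8 platelet genes have a median of 0.797, the erythroid median lies at -0.023 and the endothelial one at -0.362. Without null mouse 3, a setting not drawn, these medians were 0.574, -0.072 and 0.110.

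The genes outside the 9 with the values most like those of Alox12 were then listed by r over the same 10 mice. Gm49601 had the highest r of all genes, 0.974, at 4.82 TPM in wild-type against 6.31 TPM in null mice. Its annotation on chromosome 16 overlaps Gp1bb, the fourth gene of the von Willebrand factor receptor, so its reads and those of Gp1bb may not be separable. Gp1bb itself, at 51.5 ± 8.45 and 75.6 ± 16.0 TPM, had an r of 0.816. P2rx1, an ATP-gated channel of platelets, followed with 0.943, then Sec14l5 with 0.939, which is at the filter limit with a mean of 1.03 TPM, and Ubash3b, a phosphatase that acts on platelet tyrosine kinase signalling, with 0.924. Without null mouse 3 these 4 genes had r values of 0.934, 0.840, 0.945 and 0.801.

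After these came Gm49356 (r = 0.894), Eapp (0.889), Myct1 (0.886), Plxna4 (0.884), Inafm2 (0.884) and Prkcq (0.882), the last a protein kinase C of T cells and platelets. Without null mouse 3 they ranged from 0.652 (Prkcq) to 0.855 (Plxna4). Eapp averaged 38.5 TPM in wild-type against 37.3 TPM in null mice, so not every gene of this list had a higher mean in null mice. Each of the 10 had a permutation p that did not pass the adjustment over all genes.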

How the data were processed

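Total RNA of 10 mice was sequenced from libraries made with a low-input kit, per the labels' protocols. The authors deposited 1 table of TPM values per transcript; the submitters' processing notes list kallisto and DESeq2 and a human build, GRCh38, although the identifiers are of mouse transcripts. Program versions and the transcript index are not given in the sources used here. Each column sums to 1000000 TPM, so libraries rich in a few transcripts show lower values of all others, and depth is unknown.

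Of 116912 transcripts, 115440 matched GENCODE M21 (GRCm38) without version numbers, and the 1472 others held 0.275 to 0.356% of TPM per library. TPM was summed to 35705 genes, those with a mean of at least 1 TPM (13841) were kept, and log2(TPM + 1) was analysed, a scale that understates the change of low genes. Genotypes were compared with limma 3.58.1 in R 4.3.3 (trend, all 10 mice, no covariate, two-sided, Benjamini-Hochberg). Relations with Alox12 used Python 3.11.15, numpy 2.4.6, pandas 2.3.3 and scipy 1.17.1, with genotype means subtracted and an exact permutation test within genotypes, whose smallest p is 6.94e-05. Both steps were tested on simulated data. The libraries came from individual animals, per the series design text.

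The 9 genes and all lists (platelet, eicosanoid, lipoxygenase, endothelial, erythroid, neutrophil, keratinocyte, osteoblast and osteocyte, cartilage and B lineage) were chosen with earlier results of these data known. Of each platelet and eicosanoid list the genes named were the highest in mean TPM and the largest difference in each direction; of genes outside the 9, the 10 with the highest r were named. Gata1, Gfi1b, Zfpm1, Ptgs1 and Gp1bb were named in addition, after their values were seen. Alternatives were other pseudocounts, filters and scalings, a replicate block, single mice left out, a platelet covariate and single transcripts.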

Additional observations from a re-analysis of the deposited data

Results flagged for a closer look

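Each gene's 5 values per genotype were examined for a mouse standing apart from the other 4, taken as a gap to the nearest mouse of more than 0.71 of the whole range of the group (Dixon's critical value). Chance gives such a gap in about 1 in 20 groups, and it was found in 4 of 18 groups, each time for wild-type mouse 1 as the lowest of its group. Its values were 474 TPM for Ppbp, 14.3 TPM for Gp1ba, 57.6 TPM for Gp9 and 21.6 TPM for Gp5. These 4 genes follow one another closely across mice, so the 4 are not separate observations. The same mouse had the highest summed cartilage markers of all 10 (2179 TPM) and the lowest summed erythroid markers (112881 TPM); the part of this in its platelet values was not tested.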

How the results depend on the processing

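All genotype differences of the 9 genes stayed above 0 under every other pseudocount, filter, scaling and left-out mouse tried, between 0.26 and 0.48 for Alox12 and between 0.36 and 0.61 for the median of the platelet genes. The Vwf difference was 0.16 without null mouse 1, in place of 0.32. The value below 0 was that of Alox12 with the platelet mean as covariate, at -0.039. In limma the number of genes with an adjusted p under 0.05 was 0 with all mice, 0 to 1 when a single mouse was left out, and 1 without both wild-type mouse 1 and null mouse 3; the genes called were Gm37419, Igkv2-109, Rpl30-ps9 and Ighv5-12, a different one each time and named after their values were seen. At an unadjusted p under 0.05, 592 of 1603 genes were higher in null mice, and 1217 of 1794 after rescaling without haemoglobin genes. The scalings moved the median difference of all genes from -0.045 to 0.0033 (median ratio), 0.0039 (quantile) and 0.036 (without haemoglobin).

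The number of platelet genes with a positive r with Alox12 at an unadjusted permutation p under 0.05 was 7 with all mice, 2 to 7 with a single mouse left out (2 without null mouse 3), 1 without wild-type mouse 1 and null mouse 3, and 0 without null mice 1 and 3, where the r of Vwf was -0.116; fewer mice also leave fewer reassignments. Without subtracting genotype means the median r was 0.862. The last 2 sets of mice, the transcript subsets and limma with Alox12 in the model (0 genes with an adjusted p under 0.05) were chosen after seeing the data.

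Replicate numbers showed no pairing in the values: the deviations of same-numbered mice correlated between -0.144 and 0.0564, and 0 of 5 wild-type mice correlated best with their own number. Whether same-numbered mice shared a litter or batch is not given, and these values cannot decide it. With the replicate block, limma called 0 genes, and for the relation with Alox12 the median r was 0.904. By r among all genes, Ppbp then ranked 37 in place of 54. Every other platelet gene ranked lower than in the main setting, Itga2b 73 in place of 5 and Gp9 77 in place of 6. An unadjusted permutation p under 0.05 was found for 3 of 8 genes, with 0 after adjustment, over 120 reorderings of the 5 numbers. A first version, which reordered each genotype independently, gave 5 of 8 genes with an adjusted p under 0.05; it was replaced after that result was seen, because values with both means subtracted mirror each other between genotypes and cannot be reordered independently.

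Depth is unknown, so counting error could not be set beside any value, and transcript values of 1 gene share reads.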
